A study of Sus scrofa with 9 samples.

Results

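Slow fibre contractile genes were followed in longissimus dorsi, a back muscle, from 9 male pigs. The set held 8 genes, MYH7, MYL2, MYL3, TNNC1, TPM3, MYOZ2, CASQ2 and MYBPC1, chosen by their known role in slow fibres and not by a threshold on their values. The choice was made with earlier results of these data known. Every probe set annotated with one of these symbols alone was taken, which gave 9 of the 27558 probe sets and 8 of the 12361 named genes on the array. MYOZ2 had a pair of probe sets and each other gene had 1, and the probe set with the highest mean stood for the gene. Starting at a body weight near 95 kg, the animals ate a lysine-deficient, a lysine-excess or a lysine-adequate diet for 5 weeks, with 3 pigs and 1 array per pig on each diet. The adequate diet served as the reference, and the labels give no genotype, breed, litter or age. All pigs shared the muscle, the sampling site and the sex. The values are whole-transcript array signals on a log scale, taken as log2 from their range, so a difference of 1 is a doubling.

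Skeletal muscle is a mixture of slow fibres, which contract slowly, resist fatigue and depend on oxidative metabolism, and fast fibres, which contract quickly and lean on glycolysis. The fibre types build their sarcomeres from different gene copies: slow fibres use the slow myosin heavy chain with its own light chains, a slow troponin C that senses calcium and a slow alpha-tropomyosin, and they differ in their Z-disc and calcium-store proteins too. The pig longissimus is a muscle in which fast fibres predominate, so slow fibre transcripts there come from a minority of fibres. Several of these slow genes are also the genes of the heart ventricle. In whole muscle, fewer slow fibres and less slow fibre RNA per fibre cannot be told apart.

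All 7 measured genes of skeletal muscle identity were bright, among them skeletal actin (ACTA1), at a mean log2 value of 12.63. Markers of heart muscle were near the bottom of the scale: 4 of 5 were under 5.07, the median over probe sets, and the natriuretic peptide gene NPPA averaged 4.51. Excess pig 11 gave an array unlike the rest, with correlations of 0.904 to 0.956 to the others, while those among the other 8 arrays were 0.977 to 0.992. Probe sets with a mean log2 value from 9.5 to 13, a range chosen after the data were seen because it holds 7 of the 8 genes, lay below the other 2 excess pigs on that array by a median of 0.25 (a deviation of -0.25 over 1710 probe sets). The slow fibre genes deviated on the same array by between -0.13 (CASQ2) and 0.17 (TNNC1). By limma the share of probe sets past an adjusted p of 0.05 was 0.0% in each comparison, and 0 of the 8 genes passed. Unadjusted p-values below 0.05 are therefore given only as a description, beside how often they occurred over all probe sets. In the test for any difference among the 3 diets, TNNC1, MYBPC1 and MYL2 had an unadjusted limma p below 0.05 (0.0083, 0.0078 and 0.0187, adjusted p = 0.933 each), which is 3 of 8 genes beside 2.54% of all probe sets.

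Against adequate pigs, the 8 genes did not move as 1 block. In excess pigs all 8 means lay above those of adequate pigs, led by TNNC1 at 1.38-fold. In deficient pigs 5 means lay above and 3 below, with TNNC1 and MYL3 at the upper end and MYBPC1 and MYOZ2 at the lower. The excess group had the highest mean of the 3 diets for 6 genes, the deficient group for the other 2 (MYL3 and CASQ2), and the adequate group for 0. The adequate group had the lowest mean for 5 genes and the deficient group for 3 (MYL2, MYOZ2 and MYBPC1). The plot of values by diet shows these orders pig by pig.

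**Figure D1:**
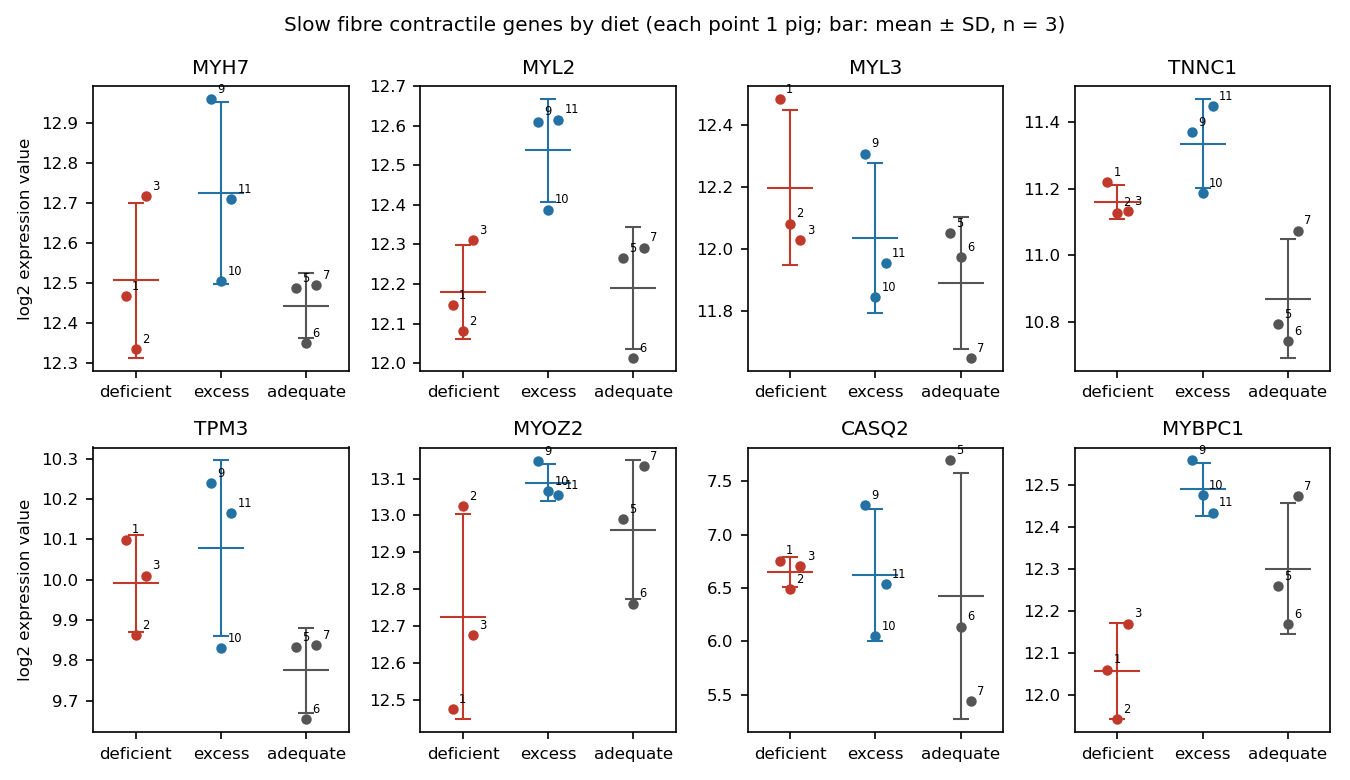
Log2 expression values (y axis, a separate range in each panel) of the 8 slow fibre genes in deficient, excess and adequate pigs; points are single pigs with their label numbers, and bars give the mean ± SD of 3 pigs. For MYL2 the 3 excess pigs sit at 12.39 to 12.62, above all the deficient and adequate pigs, while CASQ2 in adequate pigs runs from 5.44 to 7.69.

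MYH7 encodes the slow myosin heavy chain, the motor protein that defines the slow fibre. Its log2 value was 12.47, 12.34 and 12.72 in deficient pigs 1, 2 and 3, 12.96, 12.50 and 12.71 in excess pigs 9, 10 and 11, and 12.49, 12.35 and 12.49 in adequate pigs 5, 6 and 7. Excess pig 9 was the highest of all, and the excess pigs lay above the adequate pigs without overlap, although excess pig 10 did so by a narrow margin. The deficient pigs spanned the adequate ones. Excess exceeded adequate by 0.28 ± 0.14 (log2 difference ± SE, n = 3 pigs per diet), with a 95% interval of -0.04 to 0.60 and a limma adjusted p of 0.757. Without excess pig 9 this difference was 0.16. Deficient minus adequate was 0.06 ± 0.14, and it turned to -0.04 without deficient pig 3.

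The light chains of slow myosin gave different orders. MYL2, the regulatory light chain of slow and ventricular myosin, had log2 values of 12.15, 12.08 and 12.31 in deficient pigs, 12.61, 12.39 and 12.62 in excess pigs, and 12.26, 12.01 and 12.29 in adequate pigs. Every excess pig lay above every pig of the other diets, and the deficient and adequate pigs occupied the same range. Excess minus adequate was 0.35 ± 0.11, or 1.27-fold (95% interval 0.09 to 0.60, limma unadjusted p = 0.0136, adjusted p = 0.757). Deficient minus excess was -0.36 ± 0.11 (95% interval -0.61 to -0.10, limma unadjusted p = 0.0118, adjusted p = 0.872). Deficient and adequate pigs differed by -0.01 ± 0.11, with an interval of -0.26 to 0.24 and a sign that turned with several settings.

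MYL3, the essential light chain of the same myosin, followed another pattern. It measured 12.49, 12.08 and 12.03 in deficient pigs, 12.31, 11.85 and 11.96 in excess pigs, and 12.05, 11.98 and 11.65 in adequate pigs. Deficient pig 1 was the highest and adequate pig 7 the lowest, and all 3 groups overlapped. Deficient minus adequate was 0.31 ± 0.18 (95% interval -0.10 to 0.72, limma adjusted p = 1.00) and 0.16 without deficient pig 1. Excess minus adequate was 0.14 ± 0.18, and 0.01 without excess pig 9. MYL3 and CASQ2 were the genes whose mean was highest in deficient pigs, and for neither did that group stand clear of the others.

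On the thin filament, TNNC1 had the largest excess minus adequate difference of the 8 genes. TNNC1 is the slow and cardiac troponin C, which binds calcium and starts contraction. Its log2 values were 11.22, 11.13 and 11.13 in deficient pigs, 11.37, 11.19 and 11.45 in excess pigs, and 10.79, 10.74 and 11.07 in adequate pigs. All 3 adequate pigs lay below all 6 pigs of the deficient and excess diets, with adequate pig 7 the closest to them. Excess minus adequate was 0.47 ± 0.11, or 1.38-fold (95% interval 0.22 to 0.72, limma unadjusted p = 0.0028, adjusted p = 0.757), and it ran from 0.40 to 0.57 as single pigs were left out. Deficient minus adequate was 0.29 ± 0.11, or 1.22-fold (95% interval 0.04 to 0.54, limma unadjusted p = 0.0284, adjusted p = 1.00). These differences share the same adequate pigs. Deficient and excess pigs overlapped for TNNC1, with a difference of -0.18 ± 0.11.

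TPM3 encodes the slow skeletal alpha-tropomyosin, and other forms of the same gene occur in non-muscle cells, which the array value does not separate. TPM3 measured 10.10, 9.86 and 10.01 in deficient pigs, 10.24, 9.83 and 10.16 in excess pigs, and 9.83, 9.65 and 9.84 in adequate pigs. The deficient pigs lay above the adequate ones without overlap, by 0.22 ± 0.12. Of the excess pigs, pigs 9 and 11 were high and pig 10 lay level with the top of the adequate group, so those groups overlapped. Excess minus adequate was 0.30 ± 0.12 (95% interval 0.02 to 0.59, limma unadjusted p = 0.0404, adjusted p = 0.757), and 0.43 without excess pig 10.

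MYBPC1 and MYOZ2, like MYL2, had their lowest means in deficient pigs. MYBPC1, the slow form of myosin binding protein C, which braces the thick filament and also occurs in fast fibres, measured 12.06, 11.94 and 12.17 in deficient pigs, 12.56, 12.48 and 12.43 in excess pigs, and 12.26, 12.17 and 12.47 in adequate pigs. All deficient pigs lay below all excess pigs, and deficient pig 3 and adequate pig 6 were level to 2 decimals. Deficient minus excess was -0.43 ± 0.10, which is 1.35-fold lower in deficient pigs (95% interval -0.66 to -0.21, limma unadjusted p = 0.0025, adjusted p = 0.872). Its value ran from -0.49 to -0.38 as single pigs were left out. Deficient minus adequate was -0.24 ± 0.10 (limma unadjusted p = 0.0391, adjusted p = 1.00), and -0.16 without adequate pig 7. Excess minus adequate was 0.19 ± 0.10, with an interval of -0.04 to 0.42.

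MYOZ2, also called calsarcin-1, ties calcineurin to alpha-actinin at the Z-disc of slow and cardiac muscle. On its brighter probe set the log2 values were 12.47, 13.03 and 12.67 in deficient pigs, 13.15, 13.07 and 13.05 in excess pigs, and 12.99, 12.76 and 13.13 in adequate pigs. Deficient pigs 1 and 3 were the lowest, and deficient pig 2 lay just under the excess pigs. Deficient minus excess was -0.36 ± 0.15, or 1.29-fold lower in deficient pigs (95% interval -0.71 to -0.02, limma unadjusted p = 0.0425, adjusted p = 0.872), but -0.24 without deficient pig 1 and -0.52 without deficient pig 2. The dimmer probe set had deficient values of 11.25, 12.09 and 11.80, against 12.34, 12.11 and 12.28 in excess pigs. It gave -0.53 ± 0.22 for deficient minus excess, and the 2 groups were again separate. Deficient minus adequate was -0.24 ± 0.15 on the brighter probe set and -0.30 ± 0.22 on the dimmer one, with overlap in both. Without deficient pig 1 the brighter probe set gave -0.11, and without deficient pig 2 it gave -0.39.

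CASQ2 encodes the calsequestrin of slow and heart muscle, which stores calcium in the sarcoplasmic reticulum. It measured 6.75, 6.49 and 6.70 in deficient pigs, 7.27, 6.05 and 6.53 in excess pigs, and 7.69, 6.14 and 5.44 in adequate pigs. The deficient pigs lay close together, while the adequate pigs held both the highest and the lowest value of all. The SD was 0.14 in deficient, 0.62 in excess and 1.15 in adequate pigs, and the groups overlapped in every comparison. Excess minus adequate was 0.20 ± 0.55, with an interval of -1.08 to 1.47, so changes of more than 2-fold in either direction lie inside it. Without adequate pig 5 the difference was 0.83, and without adequate pig 7 it was -0.30.

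**Figure D2:**
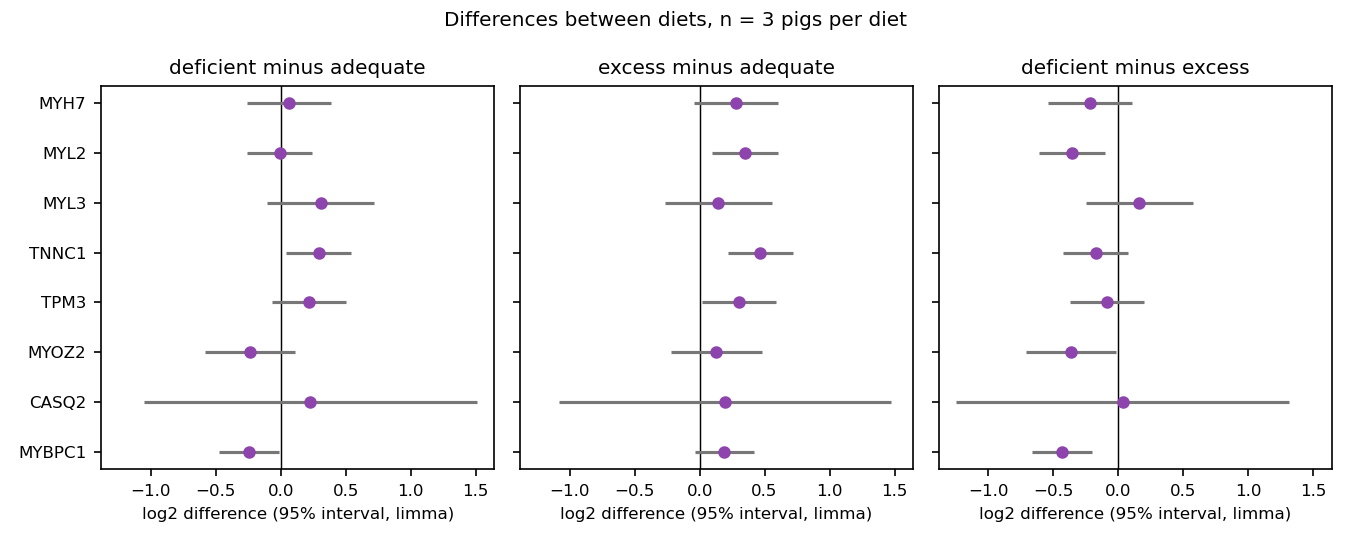
Log2 differences between diets (x axis) for each gene (y axis); points are limma estimates from 3 pigs per diet and lines their 95% intervals. All 8 points lie right of 0 for excess minus adequate, and the interval of CASQ2 there spans -1.08 to 1.47.

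Counted over the set, excess minus adequate was above 0 for 8 of 8 genes with a median of 0.24, beside 50.2% of all probe sets above 0 and a median of -0.02 over the main probe sets of all named genes. The count was 7 without excess pig 9 and 7 without adequate pig 7, CASQ2 turning in both cases, and 8 without excess pig 11. TNNC1, MYL2 and TPM3 had an unadjusted limma p below 0.05 and were higher, a count of 3 beside a background of 1.35% of probe sets, and 0 were lower (background 2.21%, or 3.56% in either direction). These shares rest on single pigs: without excess pig 9 they were 8.14% higher and 8.69% lower, with MYL2 and TNNC1 still at that p, and without adequate pigs 5 and 6 in turn 0.769% and 0.704% were higher. TNNC1, MYL2 and MYH7 lay fully above, where the background was 3.2%, and 0 lay fully below (background 3.84%). Probe sets of the same brightness had a median excess minus adequate difference of -0.09, and 21.3% of them were above 0. Without excess pig 11 that median was -0.0064 and 47.3% were above 0, so the shift of bright probe sets rested on that array, while the median of the 8 genes was 0.25 without it. The median of the 8 genes was 0.16 without excess pig 9 and 0.41 without excess pig 10.

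For deficient minus adequate 5 of 8 genes were above 0, beside 52.9% of all probe sets, and the median was 0.14, against 0.00 over all named genes. Leaving out single pigs moved this median from 0.05 (without adequate pig 6) to 0.21 (without deficient pig 2), with 0.06 without adequate pig 7 and 0.08 without deficient pig 3. TNNC1 was the 1 gene higher at an unadjusted limma p below 0.05 (background 0.842%) and MYBPC1 the 1 gene lower (background 1.01%, or 1.85% in either direction). Neither gene met that p without deficient pig 1, deficient pig 2 or adequate pig 5, and without deficient pig 2 MYOZ2 alone did. Only MYBPC1 met it without deficient pig 3 or adequate pig 6, and only TNNC1 without adequate pig 7 or excess pig 10. The share in either direction was 3.54% without excess pig 11 and 2.88% without deficient pig 3. TNNC1 and TPM3 lay fully above the adequate pigs (background 3.77%), and 0 genes lay fully below (background 3.07%). For deficient minus excess 2 of 8 genes were above 0, beside 50.0% of all probe sets, and the median was -0.20, against 0.01 over all named genes. MYBPC1, MYL2 and MYOZ2 were lower at an unadjusted limma p below 0.05 (background 1.23%), the same 3 genes lay fully below (background 2.19%), and 0 genes were higher at that p (background 2.84%, or 4.08% in either direction) or fully above (background 4.28%). Without excess pig 11 MYL2 and MYBPC1 met that p, which is 2 genes. Without excess pig 9 the same 2 genes met it, the share lower was 6.52% and the share higher 7.88%, and the median of the 8 genes was -0.13. Without deficient pig 1 the share lower was 0.816%. Excess minus adequate and deficient minus adequate share the adequate pigs, and the third comparison shares pigs with both, so these counts are not independent.

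Each slow gene was then set beside its fast fibre counterpart. These are MYH1 for MYH7, MYLPF for MYL2, MYL1 for MYL3, TNNC2 for TNNC1, TPM1 for TPM3, MYOZ1 for MYOZ2, CASQ1 for CASQ2 and MYBPC2 for MYBPC1. MYH2 and MYH4 share 1 probe set with MYH1 and were not measured alone. That shared probe set gave -0.16 ± 0.15 for deficient minus adequate and for excess minus adequate.

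In excess against adequate pigs the fast counterparts differed by between -0.08 (CASQ1) and 0.01 (MYH1), and in all 8 pairs the slow gene had the larger difference in size. The slow-to-fast log2 ratio, taken within each pig, was on average higher in excess pigs for 8 of 8 pairs. It was fully above the adequate pigs for TNNC1 over TNNC2, MYL2 over MYLPF and MYBPC1 over MYBPC2, with mean differences of 0.51, 0.37 and 0.23. For TNNC1 over TNNC2 the ratio, centred on the adequate mean, was 0.60, 0.32 and 0.62 in excess pigs 9, 10 and 11, and -0.04, -0.19 and 0.23 in adequate pigs 5, 6 and 7. A ratio within a pig shows unequal change of the 2 genes and not which of them changed. Because the fast counterparts differed little here, the count of 8 of 8 pairs largely repeats that of the slow genes alone.

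In deficient against adequate pigs the ratio was on average higher in 6 of 8 pairs and lower for MYOZ2 and MYBPC1. It was fully above for TNNC1 over TNNC2, MYH7 over MYH1 and MYL3 over MYL1, with mean differences of 0.35, 0.32 and 0.34. For MYH7 over MYH1 the fast gene contributed the larger part, since MYH1 differed by -0.26 ± 0.16 and MYH7 by 0.06. The MYH1 difference was -0.12 without adequate pig 7, -0.16 without deficient pig 1 and -0.39 without deficient pig 3. In deficient against excess pigs the ratio of MYOZ2 over MYOZ1 and of MYBPC1 over MYBPC2 lay fully below, with mean differences of -0.43 and -0.37. No test was run on these ratios: with 3 pigs against 3, an exact two-sided permutation test cannot go below 0.10. How often the ratios of other gene pairs separate was not counted, so these separations have no background share beside them.

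**Figure D3:**
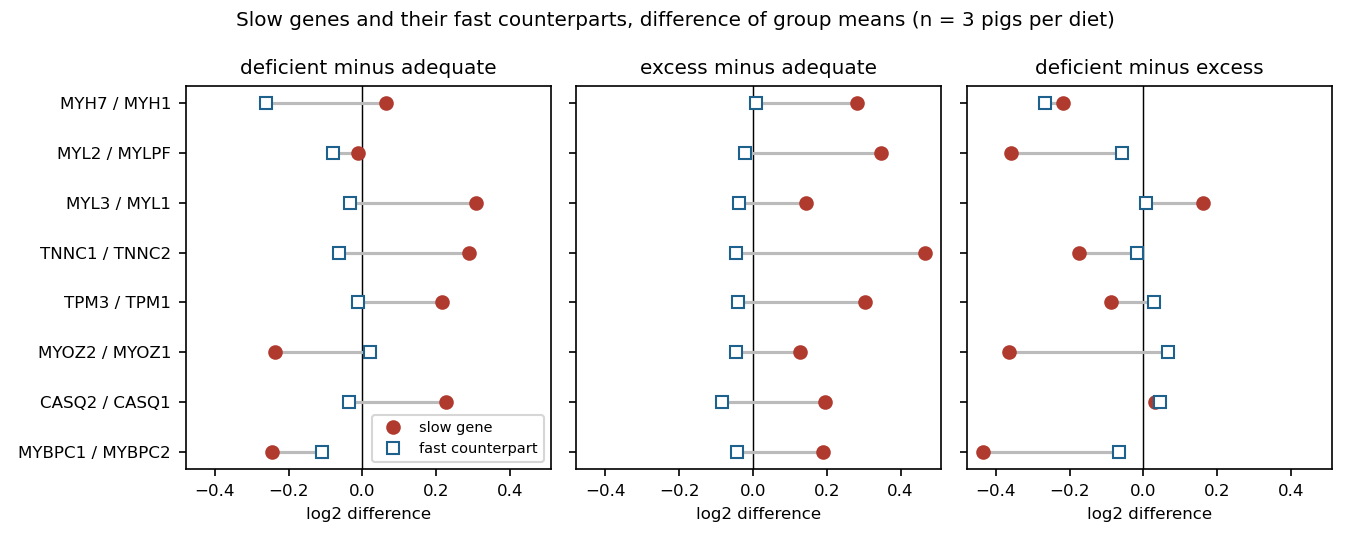
Differences of diet means on the log2 scale (x axis) for each slow gene (filled circle) and its fast counterpart (open square), n = 3 pigs per diet. In the excess minus adequate panel the squares lie between -0.08 and 0.01 and every circle lies to their right.

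The slow genes also varied more between pigs of 1 diet than the fast genes. The pooled within-diet SD had a median of 0.17 over the 8 slow genes, from 0.12 (MYBPC1) to 0.76 (CASQ2), and of 0.065 over the 11 measured fast contractile genes. Of the fast genes 9 had an SD below 0.1, led by TPM1 at 0.03, and of the slow genes 0 did. Whether the brightest fast probe sets are near saturation was not tested.

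Over the whole list of 11 measured fast contractile genes, 10 lay lower and 1 higher in excess than in adequate pigs, with a median of -0.04. Beside this, 50.2% of all probe sets lay higher, and 21.3% of those with a mean log2 value from 9.5 to 13. Some fast genes were brighter than that range. Without excess pig 11 the share of 21.3% became 47.3%, and 2 of the 11 fast genes lay higher. In deficient against adequate pigs 10 fast genes also lay lower and 1 higher. The shares above 0 there were 52.9% of all probe sets and 49.0% of the bright ones. The median of the fast genes was -0.08. Parvalbumin (PVALB), a calcium buffer of fast fibres, differed by -0.52 ± 0.17 (limma unadjusted p = 0.0169, adjusted p = 1.00), and by -0.31 without deficient pig 1. In deficient against excess pigs 4 lay higher and 7 lower, beside 50.0% of all probe sets and 69.6% of the bright ones above 0. Without excess pig 11 the bright share was 48.3%. PVALB differed there by -0.46 ± 0.17 without overlap (limma unadjusted p = 0.0278, adjusted p = 0.872), and by -0.25 without deficient pig 1. No other fast gene had an unadjusted p below 0.05 in any comparison.

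Of 19 other genes tied to slow or oxidative fibres, 11 were measured under a symbol of their own. In excess against adequate pigs 6 lay higher and 5 lower with a median of 0.06 (-0.033 without excess pig 9), and 0 had an unadjusted p below 0.05. In deficient against adequate pigs 5 lay higher and 6 lower with a median of -0.02. MYL6B, the slow skeletal essential light chain, differed there by -1.80 ± 0.42, and FHL1, a LIM protein of the sarcomere, by -0.27 ± 0.12, or -0.15 without adequate pig 7. In deficient against excess pigs 4 lay higher and 7 lower, with a median of -0.17 (-0.043 without excess pig 9), and MYL6B differed by -2.38 ± 0.42 (limma unadjusted p = 5.5e-04, adjusted p = 0.872). Beside it CSRP3, a Z-disc LIM protein, differed by -2.03 ± 0.78, HSPB6 by -0.30 ± 0.11 and ANKRD1, a stretch-responsive ankyrin repeat protein, by 0.76 ± 0.32. The CSRP3 difference was -1.19 without deficient pig 1. A dimmer CSRP3 probe set gave -2.61 ± 0.74, with the groups separate. For deficient minus adequate, CSRP3 differed by -1.80 ± 0.78 with overlap on the brighter probe set. The dimmer one gave -3.06 ± 0.74 there, without overlap. TNNT1 and TNNI1, the slow forms of troponin T and I, were not analysed here.

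Regulators tied to fibre type were counted next, and of 30 listed 20 were measured. They included calcineurin subunits, NFAT and MEF2 factors, but also RCAN1, SOX6, SIX4, EYA1, TBX15 and MYOD1. The list mixes genes of opposite roles, such as calcineurin and its inhibitor RCAN1. The counts therefore give no direction for the slow programme. In deficient against adequate pigs 10 lay higher and 10 lower, and 0 had an unadjusted p below 0.05. In excess against adequate pigs 4 lay higher and 16 lower with a median of -0.11, but without excess pig 11 10 lay higher, with a median of -0.029. CAMK2A, a calcium- and calmodulin-dependent kinase, was lower in excess pigs without overlap, by -0.42 ± 0.11 (limma unadjusted p = 0.0065, adjusted p = 0.757). RCAN1, an inhibitor and target of calcineurin, differed by -1.10 ± 0.57 with overlap, and by -0.70 without adequate pig 5. In deficient against excess pigs 13 lay higher and 7 lower (11 higher without excess pig 11), and MEF2A, a transcription factor of muscle genes, was higher without overlap by 0.18 ± 0.07. PPARGC1A was not analysed here.

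Markers of other cells also stood at different levels between the diets, with 0 genes past the adjusted threshold. All 8 measured fibroblast and matrix markers lay lower in excess than in adequate pigs, with a median of -0.44, and their summed log2 level ran from 13.27 to 13.66 in excess pigs and from 13.71 to 14.02 in adequate pigs. In deficient pigs all 8 lay lower as well (median -0.44, summed level 13.44 to 13.63). All 7 adipocyte markers lay lower in excess than in adequate pigs (median -0.42, summed level 10.62 to 11.06 in excess and 10.96 to 11.45 in adequate pigs), and all 7 lay higher in deficient than in adequate pigs (median 0.16, summed level 10.94 to 11.44 in deficient pigs). All 5 smooth muscle and pericyte markers lay lower in both (medians -0.50 and -0.31 for excess and deficient). Their summed level ran from 11.34 to 11.51 in deficient, 11.31 to 11.68 in excess and 11.53 to 11.86 in adequate pigs. Summed levels add unlogged signals, so the brightest markers weigh most. The adipocyte sum was mostly LPL, at a mean log2 value of 10.74, with CFD next at 7.81. Single pigs moved some of these medians. For excess minus adequate that of the fibroblast markers was -0.28 without excess pig 11 and that of the adipocyte markers -0.24 without adequate pig 5, with 1 of 7 then higher. For deficient minus adequate without adequate pig 5, the adipocyte median was 0.36 and the smooth muscle median -0.13. The adipocyte count there was 4 of 7 higher without deficient pig 3, with a median of 0.13. It was 6 of 7 without deficient pig 1, adequate pig 6 or adequate pig 7, with a median of 0.097 in the last case. The lowest deposited value was 3.097, so no marker could be at 0, and signal over background was not tested. The part of these shifts in the values of the slow genes was not tested. For comparison, the 7 skeletal muscle identity genes had medians of -0.02 in deficient and -0.03 in excess pigs against adequate ones.

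Among pigs, the slow genes varied together only in part. Over the 28 pairs of genes and 9 pigs, Pearson's r ran from -0.53 to 0.87, with a mean of 0.35 (0.29 after each diet mean was taken off), and 22 pairs were above 0. The closest pair was MYH7 with MYL2, a motor heavy chain with its own light chain: r was 0.87 and Spearman's rho 0.90 (exact permutation p = 0.0017 and 0.0020, adjusted over the 28 pairs 0.037 and 0.057). The r of this pair was 0.83 after the diet means were taken off and 0.96 without the 2 pigs farthest from the median of MYH7.

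TNNC1 and TPM3, which sit on the same thin filament, had an r of 0.85 and a rho of 0.82 (exact permutation p = 0.0027 and 0.0108, adjusted 0.037 and 0.0998). Their r was 0.70 after the diet means were taken off and 0.83 without the 2 pigs farthest from the median of TNNC1. No other pair had an adjusted p below 0.05 by either measure. MYL3 ran with CASQ2 (r = 0.66, rho 0.77, exact permutation p = 0.053 and 0.021, adjusted 0.193 and 0.0998) and went against MYOZ2 (r = -0.53, rho -0.38, exact permutation p = 0.146 and 0.313, adjusted 0.315 and 0.547). The r of MYL3 with MYOZ2 turned to 0.28 without the 2 pigs farthest from the median of MYL3, so it rested on those pigs.

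Pig by pig, excess pig 9 lay above the 9-pig mean for all 8 genes and had the highest value for MYH7, TPM3, MYOZ2 and MYBPC1. Adequate pig 6 lay below it for all 8 and had the lowest value for MYL2, TNNC1 and TPM3. The mean of the 8 centred values was 0.34 in excess pig 9, -0.05 in excess pig 10 and 0.15 in excess pig 11, and 0.08, -0.24 and -0.17 in adequate pigs 5, 6 and 7. It was close to 0 in deficient pigs 1 and 3 and -0.10 in deficient pig 2. The positive value of adequate pig 5 came with its CASQ2, since without CASQ2 that pig's mean was -0.07.

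**Figure D4:**
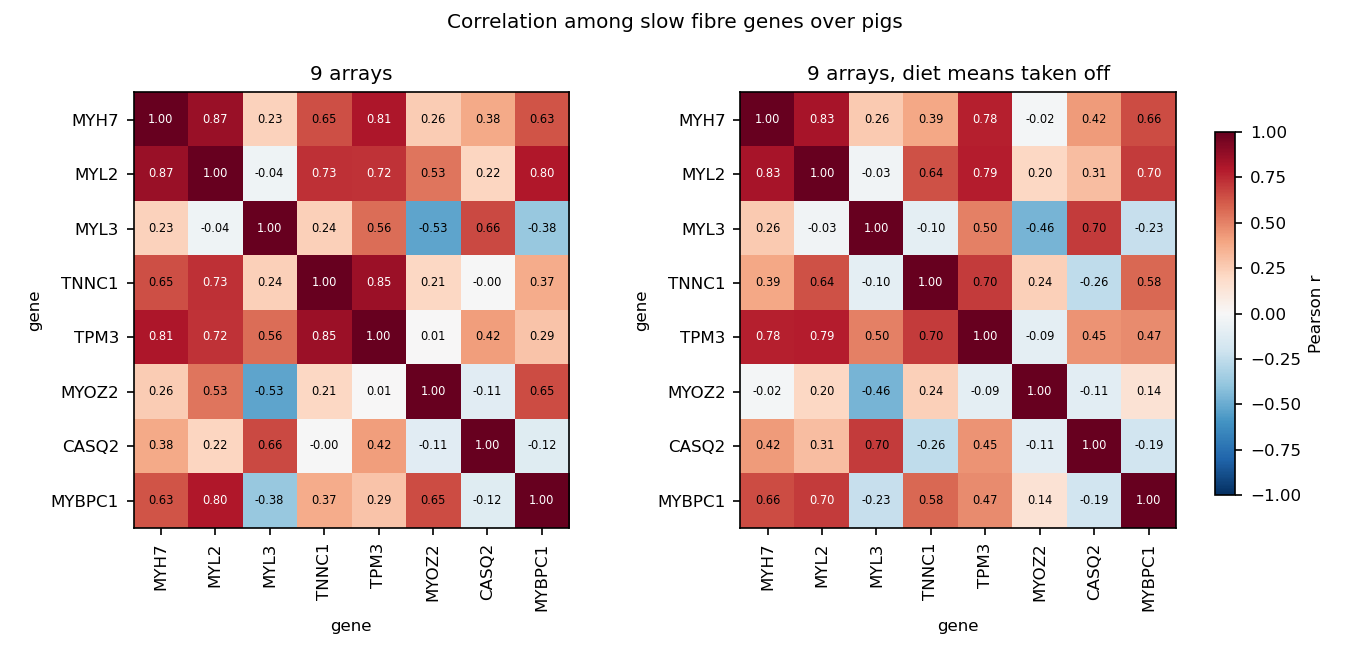
Pearson's r between slow fibre genes (both axes) over 9 pigs, as measured (left) and after each diet mean was taken off (right); colour gives r from -1 to 1. In the left panel MYH7, MYL2, TNNC1 and TPM3 have values from 0.65 to 0.87 with each other, with MYH7 and MYL2 at 0.87. MYBPC1 and MYOZ2 are positive with these genes too, from 0.01 (MYOZ2 with TPM3) to 0.80 (MYBPC1 with MYL2). MYL3 with MYOZ2 is the lowest at -0.53.

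The deficient pigs with low MYOZ2 were also those with low CSRP3, a pairing looked at after the values were seen. On its brighter probe set CSRP3 measured 7.28, 10.66 and 8.99 in deficient pigs 1, 2 and 3. It measured 11.43, 11.12 and 10.47 in excess pigs, and 10.20, 10.65 and 11.46 in adequate pigs. MYOZ2 and CSRP3 had an r of 0.91 and a rho of 0.90 over the 9 pigs (exact permutation p = 0.0012 and 0.0020, adjusted over 24 relations 0.014 and 0.024). CSRP3 was picked for its values and the adjustment does not cover that choice, so these p-values are given as a description. The permutation also ignores the diets. The r of MYOZ2 with CSRP3 was 0.86 after the diet means were taken off. Without the 2 pigs farthest from the median of MYOZ2 it was 0.56, so much of the relation rests on those pigs.

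MYBPC1 ran with MYL6B, which measured 7.79, 8.89 and 9.502 in deficient pigs, 11.34, 11.12 and 10.86 in excess pigs, and 10.14, 10.44 and 11.01 in adequate pigs. Their r was 0.88 and rho 0.93 (exact permutation p = 0.0011 and 7.5e-04, adjusted 0.014 and 0.018), with 0.86 without the 2 pigs farthest from the median of MYBPC1. It was 0.50 after the diet means were taken off, so part of the relation is the difference between diets. MYL6B too was picked after its values were seen, which the adjustment does not cover. With MYH1, a fast myosin heavy chain, MYBPC1 had an r of 0.78 and MYL3 an r of -0.77 (exact permutation p = 0.0119 and 0.0178, adjusted 0.084 and 0.085, rho 0.87 and -0.67 with p = 0.0045 and 0.059, adjusted 0.027 and 0.200). The r of MYBPC1 with MYH1 was 0.80 and that of MYL3 with MYH1 -0.15 without the 2 pigs farthest from the median of the slow gene, so the relation of MYL3 rested on those pigs.

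**Figure D5:**
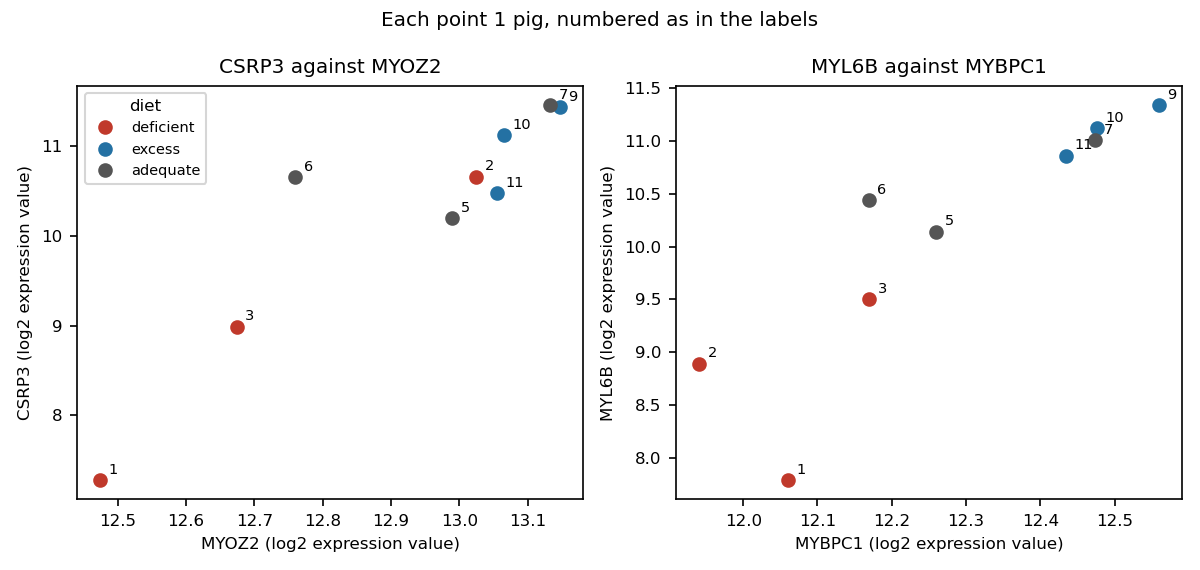
Log2 expression values of CSRP3 against MYOZ2 (left) and of MYL6B against MYBPC1 (right), 1 point per pig with its label number, coloured by diet. Deficient pigs 1 and 3 sit at the lower left of the left panel with CSRP3 at 7.28 and 8.99, and all 3 deficient pigs lie lowest on the MYL6B axis.

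Among 7220 other named genes with an SD of at least 0.15 over the 9 arrays, the 5 most like the mean of the 8 slow genes were PRKCH, DDAH1, FGF9, RAPGEF5 and HECW2. Their r with that mean was 0.95, 0.93, 0.91, 0.89 and 0.89 over 9 arrays, and 0.96, 0.88, 0.89, 0.82 and 0.85 after the diet means were taken off. PRKCH, a protein kinase C, averaged 5.95 in deficient, 6.27 in excess and 5.91 in adequate pigs. FGF9, a growth factor, averaged 4.58, 4.70 and 4.52 in these diets and was dimmer than the median probe set. They are the highest of many correlations and are given as a description. The mean of the 8 slow genes was not scaled by SD. CASQ2, with an SD of 0.67 over the 9 pigs, therefore weighed most in it. Its r was 0.70 with the mean of the 8 and 0.30 with the mean of the other 7. The likeness of these genes to a mean without CASQ2 was not tested. The slow gene most like the mean of the other 7 was MYH7 (r = 0.81), and the least like was MYOZ2 (r = 0.11).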

How the data were processed

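Total RNA from frozen longissimus dorsi of 9 pigs was amplified to sense-strand cDNA and hybridised to whole-transcript arrays, per the labels' protocols. The authors deposited 1 processed value per probe set on a log scale, and the range of 3.097 to 14.303 is why they were read as log2. The submitters' processing notes name GCOS 1.2 and Partek but no step for either. How the background was corrected, probes summarized and arrays normalized is not stated, nor is a genome build, so no coordinates are printed.

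Symbols came from the platform annotation, updated through Entrez IDs: 13323 probe sets had 1 symbol, 357 several and 13878 none, and 13014 of the first matched the pig gene table. The deposited values were used unchanged. One fit, with a mean for each diet, covered all 27558 probe sets and 9 arrays (limma 3.58.1, R 4.3.3, lmFit and eBayes). Tests were two-sided with Benjamini-Hochberg adjustment over all probe sets at 0.05. Errors are SE from this fit or SD over 3 pigs, and the 3 arrays per diet limit the precision. Correlations used exact permutation over all orderings of the 9 pigs, which ignores the diets. On simulated excess against adequate data for the 27558 probe sets, 63 of 100 probe sets given a 2-fold change were called, and 89 of 100 given a 4-fold change, beside 7 wrong calls. The simulated noise was independent between probe sets, with no array-wide effect such as that of excess pig 11. The largest difference of a slow gene on its main probe set was 1.38-fold, below the changes simulated. These rates therefore do not describe the slow genes. The members, gene lists and tests were chosen with earlier results of these data known. The text names all members, their fast counterparts, up to 4 genes of each related list with the smallest unadjusted p, and the 5 most similar genes. MYL6B and CSRP3 beside MYBPC1 and MYOZ2 were chosen after their values were seen. The lists of endothelial cells, leukocytes, nerve, red cells and satellite cells had 5, 5, 1, 3 and 1 measured genes, with medians for excess minus adequate of 0.04, -0.03, 0.07, 0.01 and -0.02. For deficient minus adequate the medians in the same order were 0.07, -0.14, 0.05, 0.0016 and 0.35. The last is NCAM1 alone, at 0.10 without adequate pig 7 and 0.71 without adequate pig 5. Alternatives covered normalization, centring, arrays fitted, prior, array weights, moderation, dim and unnamed probe sets, the SD of each array, the choice of probe set, and each pig left out. Leaving out each pig for the other gene lists, the bright probe sets and the background shares was chosen after the data were seen.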

Additional observations from a re-analysis of the deposited data

How the results depend on the processing

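None of the 24 member differences (8 genes in 3 comparisons) passed the adjusted threshold under any alternative, with 0.267 the smallest adjusted p. Over all probe sets 1 passed in place of 0 for deficient minus adequate and for any diet difference with array quality weights (PHGDH, adjusted p = 0.0123 and 0.036, limma), 1 for deficient minus excess among probe sets with 1 symbol (PHGDH, 0.0457), and 1 unnamed here without moderation for excess minus adequate, deficient minus excess and any difference. Probe sets at an unadjusted p below 0.05 numbered 511, 981 and 1124 in deficient minus adequate, excess minus adequate and deficient minus excess. They ran from 366 (without adequate pig 6) to 976 (without excess pig 11), from 584 (without adequate pig 5) to 4638 (without excess pig 9) and from 839 (without deficient pig 1) to 3969 (without excess pig 9), and from 233 to 2207, 272 to 1106 and 456 to 1724 otherwise. Fewer pigs, probe sets or weights are part of these settings, and the cause was not tested.

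The number of genes higher was 8 for excess minus adequate under every alternative that kept all pigs. For deficient minus excess it was 2, and 1 with quantile normalization applied again, array quality weights or each array's SD as a covariate, and 1 to 2 as pigs were left out. The array quality weights were 0.68, 0.19 and 0.22 for excess pigs 9, 10 and 11. That setting therefore leaned on excess pig 9 in both comparisons with the excess diet. Signs turned for 5 of the 24 differences. MYL2, deficient minus adequate, was 0.038 after quantile normalization and -0.10 to 0.040 as pigs were left out. MYH7 there ran from -0.042 to 0.15 and CASQ2 from -0.26 to 0.86. CASQ2 ran from -0.30 to 0.83 for excess minus adequate, and from -0.25 to 0.36 for deficient minus excess. For deficient minus excess it was also -0.019 after quantile normalization, -0.29 with weights and -0.19 with the covariate, against 0.03. The mean of both MYOZ2 probe sets kept its signs. No paired analysis was possible because the pig numbers are not shared between diets. Signal over background was not tested.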
